A study of Mus musculus with 9 samples.

Results

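The mouse β-TC6 line, derived from a β-cell tumour that makes insulin, was examined at 5 long non-coding RNA (lncRNA) loci chosen by their higher counts in cells given saturated fatty acids than in control cells. They are Gm11588 on chromosome 1 (XLOC_000535), C130083M11Rik beside Dhx15 on chromosome 5 (XLOC_116356), an unnamed locus near Tex36 on chromosome 7 (XLOC_134192), and unnamed loci on chromosomes 13 (XLOC_038850) and 16 (XLOC_061288). These are 5 of the 9635 loci and 21 of the 15589 transcripts in the deposited lncRNA table, taken by their locus identifiers. Because the levels with each acid against control made the choice, those values, their intervals and any call against control describe the loci and are no test of them. The comparison of stearic with palmitic acid and the split of a locus between its isoforms were not used for the choice and were tested. Both rest on the same libraries as the choice.

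The 9 libraries form 3 groups of 3. Control cells are labelled untreated. The treated groups received palmitic acid or stearic acid at 400 µmol/L, with 1.3% bovine serum albumin, for 24 h. The labels do not say whether albumin was added to the controls, so albumin and acid cannot be told apart in a change against control. Both acids are compared with the same 3 control libraries. The labels do not say whether replicates were separate cultures, so p-values measure the spread between these libraries, which may be technical. All groups are the same line, and the libraries were made from RNA depleted of ribosomal RNA with a kit that keeps strand. In such bulk RNA, fewer cells making an RNA and less of it per cell cannot be told apart.

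A lncRNA is an RNA without a known protein product, and one called intergenic lies outside protein-coding genes. Such RNAs can act where they are made, on neighbouring genes, or elsewhere in the cell, and for most of them neither is known. In β cells, long exposure to saturated fatty acids is known to impair insulin secretion and to raise stress signalling. Stearic acid has a longer carbon chain than palmitic acid, and both lack double bonds. No function is given in the annotation used here for any of the 5 loci.

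Library totals over all lncRNAs ran from 1537431 to 2870275 expected counts, and the 5 loci together held 0.0173% to 0.0224% of the total in control libraries, 0.0454% to 0.0495% with palmitic acid and 0.0555% to 0.0682% with stearic acid. The second stearic acid library had the smallest total and the largest share of counts in the most abundant transcript of the table (28.7%, against 16.4% to 25.0% in the other libraries). The table holds lncRNAs only, so β-cell identity could be read only from lncRNA loci within 10 kb of marker genes. Of 11 β-cell markers such as Ins2 and Mafa, 10 had such loci, summing to between 11612 and 13938 CPM (counts per 1000000 of the library total) in controls, 8016 to 8619 with palmitic acid and 6857 to 7947 with stearic acid. These sums were lower in the libraries in which the 5 loci were high, and their part in the levels below was not tested. The markers did not move together. Loci near Ins2 stood at 3714 to 4448 CPM in control, 1541 to 1753 with palmitic acid and 1128 to 1392 with stearic acid, and those near Mafa at 2214 to 2758, 917 to 937 and 494 to 623. Loci near Pcsk2 overlapped between groups, at 5019 to 6109, 4940 to 5335 and 4705 to 5594 CPM. The sums rest mainly on the loci near Ins2, Mafa and Pcsk2. For the loci near Ins1, Nkx6-1, Pcsk1 and G6pc2, the highest value in any library was 4.89 CPM. For the locus near Slc2a2 it was 11.9 CPM. Acinar, δ-cell and endothelial markers (8 genes) had no lncRNA locus near them. For PP cells, α cells, ducts and fibroblasts (8 marker genes), each had 1 marker with a lncRNA locus near it, and the highest value of these loci in any library was 5.70 CPM. The locus near 1 of 3 macrophage markers stood at 108 to 308 CPM in control, 138 to 192 with palmitic acid and 68.8 to 216 with stearic acid.

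Only some of these RNAs have annotated sequence. GENCODE release M21 (GRCm38, the build of the deposited coordinates, mm10) lists 1 spliced transcript each for Gm11588, C130083M11Rik and Gm45671, which lies within XLOC_134192. Their first splice junctions are shown as the annotated sequence by which each spliced RNA can be recognised. The last 40 bases of exon 1 are in lower case and the first 40 bases of exon 2 in capitals.
Gm11588 (chr1:61440478-61459117, plus strand): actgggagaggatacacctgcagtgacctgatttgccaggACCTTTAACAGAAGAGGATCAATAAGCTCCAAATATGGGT
C130083M11Rik (chr5:52214756-52216283, minus strand): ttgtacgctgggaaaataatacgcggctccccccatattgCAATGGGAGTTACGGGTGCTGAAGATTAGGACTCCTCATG
Gm45671 (chr7:133608293-133612414, plus strand): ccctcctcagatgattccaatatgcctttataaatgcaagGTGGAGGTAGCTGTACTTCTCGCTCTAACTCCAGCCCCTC
The intervals run from the last base of exon 1 to the first base of exon 2. The deposited table gives the ends and the exon number of each assembled transcript and no exon positions. Isoforms that start past the end of exon 1 cannot hold its junction. These are TCONS_00001696 of Gm11588 and TCONS_00201964, TCONS_00201965, TCONS_00201966 and TCONS_00201967 of C130083M11Rik. Which of the other isoforms use these junctions was not examined.

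RefSeq (GRCm38.p6) holds a promoter for C130083M11Rik among these loci, from 250 bases before to 50 after its annotated start. It is shown because isoforms that start near this point and isoforms that start far inside the gene both carry counts. Capitals mark matches to TATAAA and GGGCGG on either strand.
C130083M11Rik promoter (chr5:52216384-52216683, minus strand): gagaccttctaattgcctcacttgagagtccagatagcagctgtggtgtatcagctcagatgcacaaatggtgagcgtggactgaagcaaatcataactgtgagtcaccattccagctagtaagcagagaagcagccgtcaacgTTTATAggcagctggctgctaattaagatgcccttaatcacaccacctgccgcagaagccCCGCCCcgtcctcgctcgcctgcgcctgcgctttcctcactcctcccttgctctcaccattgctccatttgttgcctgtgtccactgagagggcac
One match to TATAAA begins at base 145 of this window and one to GGGCGG at base 205, both on the opposite strand. Of 32851 promoters in the RefSeq table, 13.6% hold the first and 35.7% the second. Other motifs searched on both strands had no match in this window. Among them the CCAAT box (letters CCAAT) is held by 37.4% of the promoters and the E-box (letters CACGTG) by 7.15%. The cyclic AMP response element (TGACGTCA) is held by 1.79% and the CHOP-ATF4 element (TGATGNAA) by 3.97%. A core NF-κB site, held by 0.155%, and a nuclear receptor direct repeat spaced by 1 base, held by 0.0396%, also had none. GC content was 53.7%, against a median of 52.7% over all promoters in the table.

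Gm11588 (chromosome 1, 61440101 to 61477251, plus strand) had 32, 41 and 57 expected counts in the control libraries. It had 227, 184 and 175 counts with palmitic acid and 233, 129 and 216 with stearic acid. Scaled to CPM with TMM library sizes, as in all levels from here on, it stood at 18.9 ± 3.01 in control, 75.9 ± 6.62 with palmitic acid and 95.4 ± 13.4 with stearic acid (mean ± SD, n = 3). That is 4.02-fold and 5.05-fold the control mean. All 6 acid libraries lay above all 3 control libraries, and the lowest acid library (70.2 CPM) was well clear of the highest control (21.2 CPM). The log2 change was 1.998 with palmitic acid (95% interval 1.60 to 2.39) and 2.33 with stearic acid (1.93 to 2.73). The assembled locus runs 7.78 kb past the annotated end of Gm11588 and spans a further annotated lincRNA, Gm28449, and the small nuclear RNA gene Gm25839, both on the same strand. It has no protein-coding gene within 100 kb. On the opposite strand, a separate lncRNA locus (XLOC_002555) overlaps 13.6 kb of it and held 0 to 6 counts per library.

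XLOC_061288 (chromosome 16, 49928557 to 49970622, minus strand) was the lowest of the 5 in control cells, with 4, 9 and 10 counts. It had 84.0, 62 and 71 counts with palmitic acid and 96, 46 and 97 with stearic acid. The level was 3.35 ± 1.27 CPM in control, 28.2 ± 3.95 with palmitic acid and 38.8 ± 7.47 with stearic acid (n = 3), 8.43-fold and 11.6-fold the control mean. The groups did not overlap with either acid, since no control library exceeded 4.39 CPM and no acid library was below 23.7 CPM. The log2 change was 3.04 with palmitic acid (95% interval 2.37 to 3.72) and 3.51 with stearic acid (2.84 to 4.19). Each ranked 12th highest among the 3039 loci tested, a rank that describes a locus chosen for its rise and tests nothing. Because 3 counts correspond to 1.10 to 2.01 CPM across libraries (a floor for counting error alone), the first control library (1.93 CPM) was close to that floor. The nearest coding gene is Cd47, a membrane protein that signals to phagocytes not to engulf a cell, whose gene ends 13.5 kb away on the opposite strand. The levels of Cd47 and of other coding genes named for position are not in the table.

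C130083M11Rik (XLOC_116356, chromosome 5, 52197983 to 52216972, minus strand) had the highest level. Its expected counts were 195, 172 and 216 in control, 506, 439 and 514 with palmitic acid, and 523, 329 and 616 with stearic acid. The level was 86.1 ± 7.30 CPM in control, 190.5 ± 25.8 with palmitic acid and 241 ± 17.8 with stearic acid (n = 3), 2.21-fold and 2.80-fold the control mean. All acid libraries lay above all control libraries, and those with palmitic acid (168 to 218 CPM) also lay below those with stearic acid (221 to 254 CPM). The log2 change was 1.15 (95% interval 0.83 to 1.46) and 1.49 (1.17 to 1.80). Its 3′ end lies 7.47 kb upstream of the start of Dhx15, which encodes a DEAH-box RNA helicase that takes spliceosomes apart, on the same strand.

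XLOC_038850 (chromosome 13, 98529560 to 98536086, minus strand) had 105, 108 and 119 counts in control, 324, 334 and 265 with palmitic acid, and 310.0, 214 and 315 with stearic acid. The level was 49.2 ± 4.43 CPM in control, 119.6 ± 7.47 with palmitic acid and 140.2 ± 9.32 with stearic acid (n = 3), 2.43-fold and 2.85-fold the control mean. Every acid library was above every control library. No annotated gene overlaps it, and the nearest coding gene is Gm10320, 37.6 kb away.

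XLOC_134192 (chromosome 7, 133608063 to 133617949, plus strand) had 76, 56 and 93 counts in control, 223, 224 and 199 with palmitic acid, and 168, 135 and 257 with stearic acid. The level was 32.9 ± 4.95 CPM in control, 83.9 ± 1.97 with palmitic acid and 92.0 ± 13.02 with stearic acid (n = 3), 2.55-fold and 2.80-fold the control mean. The palmitic acid libraries were close together and lay within the range of the stearic acid libraries (79.9 to 106 CPM), above all controls. It starts 5.91 kb from Tex36, a gene named for its expression in testis, on the opposite strand, and 163 bases upstream of the annotated lincRNA Gm45671. Other coding genes within 100 kb are Edrf1, Mmp21, Uros and Bccip.

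**Figure D1:**
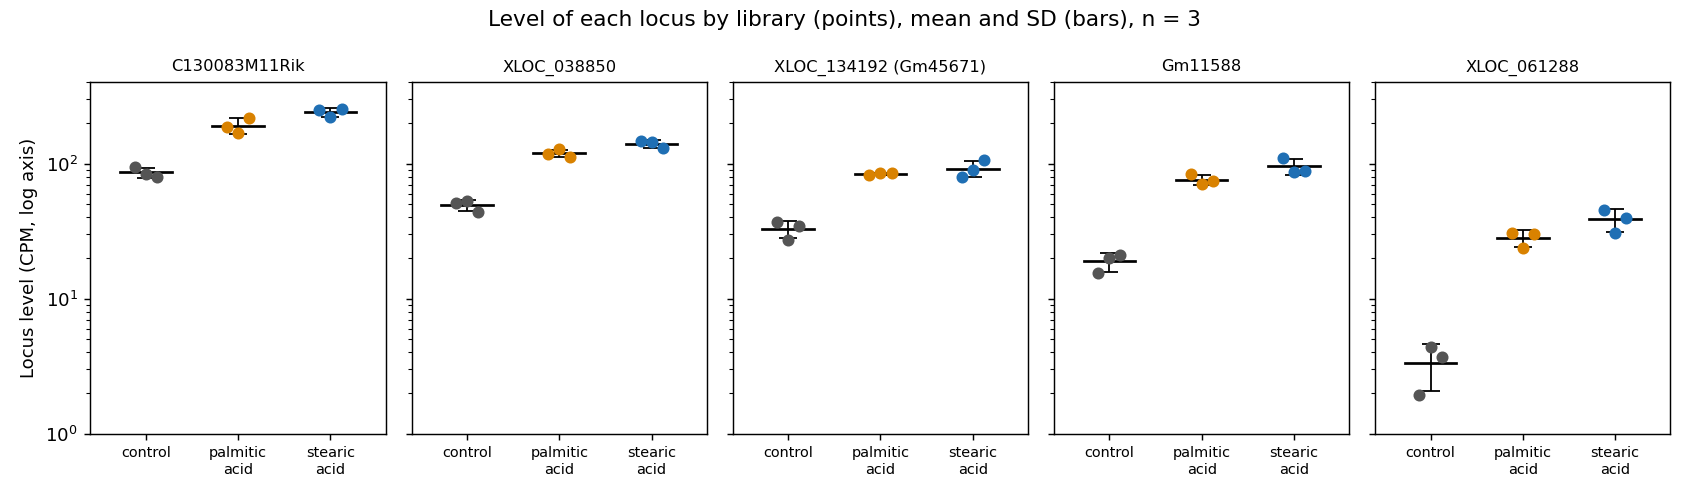
Level of each of the 5 loci in CPM on a log axis, by library (points) with the group mean (bar) and SD (error bar, n = 3). All 6 acid libraries lie above the 3 control libraries at every locus, and XLOC_061288 starts from the lowest control level (3.35 CPM).

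Against control, all 5 loci were called higher with each acid by edgeR (quasi-likelihood, adjusted over all loci), a count that the choice of the loci fixes. Among all 3039 loci tested, 3.69% were called higher with palmitic acid and 6.38% with stearic acid, and 5.56% and 11.8% in either direction. All 3 palmitic acid libraries lay above all controls for 14.1% of tested loci, and all 3 stearic acid libraries for 15.0%. Their median log2 change was 1.35 with palmitic acid and 1.51 with stearic acid, beside −0.02 and 0.01 over all loci tested. Over all loci, 169 were called with palmitic acid in either direction, and 104 to 110 without control replicate 1, 2 or 3 or palmitic acid replicate 1 or 2. With stearic acid 358 were called, and 236 without control replicate 2. Scaled by library size alone, the calls with palmitic acid were 81 higher and 61 lower, against 112 and 57 with TMM. Without stearic acid replicate 2, the stearic acid log2 change was 2.38 for Gm11588, 3.64 for XLOC_061288, 1.54 for C130083M11Rik, 1.49 for XLOC_038850 and 1.49 for XLOC_134192.

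Levels can be compared between loci only per length, and the authors' FPKM values, summed over the transcripts of a locus, gave this order in control cells. C130083M11Rik stood at 17.4 ± 2.20 FPKM, XLOC_038850 at 13.7 ± 2.98, Gm11588 at 6.32 ± 0.217, XLOC_134192 at 6.12 ± 1.37 and XLOC_061288 at 1.01 ± 0.242 (n = 3). Gm11588 and XLOC_134192 did not differ beyond their spread in control cells. With palmitic acid Gm11588 stood at 24.3 ± 3.07 FPKM and XLOC_134192 at 14.8 ± 0.121, and with stearic acid at 32.2 ± 6.58 and 17.1 ± 2.04, so these groups no longer overlapped. C130083M11Rik had the highest mean in each group, at 36.8 ± 5.79 FPKM with palmitic acid and 44.4 ± 1.97 with stearic acid. Its range overlapped that of XLOC_038850 in all 3 groups (31.7 ± 3.06 and 38.7 ± 4.52). Compared within the same library, C130083M11Rik was above XLOC_038850 in every control and stearic acid library. It was below in palmitic acid replicate 2 (30.8 against 32.3 FPKM). Within the same library XLOC_038850 was above Gm11588 throughout, though their ranges overlapped with stearic acid. XLOC_061288 had the lowest mean in each group, at 9.59 ± 1.56 and 13.2 ± 3.45 FPKM.

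Stearic and palmitic acid were compared directly, at the same dose and time, as 1 pair of compounds over the 5 loci. Every locus had a higher mean with stearic acid, and none passed. At 4 of the 5 all stearic acid libraries lay above all palmitic acid libraries, as they did at 6.84% of all loci tested. At XLOC_061288 the gap was between 30.79 and 30.83 CPM. The 5 loci were chosen for high levels in these same acid libraries, so nothing is read from this count. C130083M11Rik differed by a log2 value of 0.34 (95% interval 0.04 to 0.64), with an unadjusted p of 0.0275 in edgeR's quasi-likelihood test and an adjusted p of 0.627 over all loci. The log2 difference was 0.33 for Gm11588 (−0.02 to 0.68, edgeR adjusted p = 0.665) and 0.47 for XLOC_061288 (−0.05 to 0.98, edgeR adjusted p = 0.682). It was 0.23 for XLOC_038850 (−0.08 to 0.53, edgeR adjusted p = 0.760) and 0.14 for XLOC_134192 (−0.21 to 0.48, edgeR adjusted p = 0.905). These intervals leave room for a level with stearic acid above that with palmitic acid at each locus and, for all but C130083M11Rik, for a slightly lower one. In this comparison 0.0987% of all loci were called (3 of 3039, and 0.0658% higher with stearic acid), 224 had an unadjusted p under 0.05, and the Wald test of DESeq2 called 7, none of them among these 5. The calls over all loci fell to 0 without palmitic acid replicate 2 and to 1 without stearic acid replicate 3. The median log2 difference over all loci tested was 0.01. Scaled by library size alone, that median was 0.09.

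Each locus was assembled as 2 to 7 isoforms, and how a locus divides between them was examined next. At 4 of the 5 loci all isoforms share a single 3′ end, which holds for 26.8% of the 2809 loci with at least 2 transcripts in the table, while starts differ. The starts of XLOC_061288 are spread over 35.7 kb, those of C130083M11Rik over 13.7 kb, those of Gm11588 over 3.10 kb and those of XLOC_038850 over 160 bases, and both isoforms of XLOC_134192 have the same ends. The table classes all 21 transcripts as intergenic, with 2 to 8 exons, and as known only the 6 of Gm11588. Of the 21, 17 passed the filter on low counts, 13 had 0 counts in at least 1 library, and 1 had 0 in all libraries.

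At XLOC_038850, TCONS_00068951 (2 exons) held 61.9% ± 13.2 of counts in control (52.5% to 76.9%), 64.0% ± 6.21 with palmitic acid and 64.3% ± 5.55 with stearic acid (n = 3). TCONS_00068952 (3 exons) held nearly all the rest, at 38.1% ± 13.2, 33.9% ± 2.55 and 35.2% ± 5.33. Every acid library of each isoform lay above its controls. The other isoform, TCONS_00068950, had 20.6 counts in palmitic acid replicate 1, 4.20 in stearic acid replicate 1 and 0 elsewhere. In the authors' deposited table for stearic acid, TCONS_00068951 (4807 bases) had a log2 change of 1.52 ± 0.230 (SE) and TCONS_00068952 (2977 bases) one of 1.28 ± 0.332.

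At XLOC_061288, TCONS_00102704 held 2.33, 9 and 6 counts in control, 63.1, 41.0 and 44.5 with palmitic acid, and 71.6, 32.3 and 68.0 with stearic acid. TCONS_00102705, which starts 11.8 kb further upstream, held 1.67, 0 and 4 counts in control, 15.6, 21.1 and 26.5 with palmitic acid, and 20.5, 13.7 and 29.0 with stearic acid. Its share of the locus was 30.0% ± 9.98 with palmitic acid and 27.0% ± 4.85 with stearic acid. The control share (27.2% ± 23.6) rests on 0 to 4 counts. The third isoform, TCONS_00102703, had 5.30 counts in palmitic acid replicate 1, 3.88 in stearic acid replicate 1 and 0 elsewhere.

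At Gm11588, TCONS_00001693 (3 exons) held 0, 4.94 and 32.1 counts in control, 117, 96.9 and 88.1 with palmitic acid, and 86.3, 58.3 and 91.0 with stearic acid. TCONS_00001691 (5 exons) held 0, 16.0 and 0 counts in control, 52.3, 34.2 and 59.5 with palmitic acid, and 64.5, 51.6 and 58.9 with stearic acid. These isoforms were above every control library in every acid library, and together they held most counts of the locus with each acid. TCONS_00001694 (2 exons) had 19.4, 10.9 and 0 counts in control, 13.5, 8.57 and 7.84 with palmitic acid, and 48.2, 14.4 and 16.9 with stearic acid. In CPM it overlapped its controls with each acid, at 0.837-fold the control mean with palmitic acid and 2.71-fold with stearic acid. TCONS_00001695 (4 exons) also overlapped, with 12.7, 9.13 and 19.3 counts in control, 17.8, 0 and 14.9 with palmitic acid, and 0, 4.73 and 44.2 with stearic acid. TCONS_00001696, the isoform with the later start, ranged from 0 to 44.4 counts over all libraries, and TCONS_00001692 had 6.70 counts in palmitic acid replicate 1 and at most 0.01 elsewhere.

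At XLOC_134192, TCONS_00233223 held 76, 56 and 50.6 counts in control, 169, 161 and 199 with palmitic acid, and 126, 135 and 226 with stearic acid. The other isoform, TCONS_00233224, has the same ends and exon number. It had 0, 0 and 42.4 counts in control, 54.0, 63.3 and 0 with palmitic acid, and 41.75, 0 and 31.5 with stearic acid, so it was at 0 in 4 of the 9 libraries. How reads were divided between isoforms with the same ends was not tested.

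C130083M11Rik has 7 isoforms in the table. TCONS_00201969 has the start, end and exon number of the annotated 8-exon RNA, and it had 0 counts in all 9 libraries. The isoforms with counts end 2001 bases further downstream, except TCONS_00201972 (4 exons, 3.79 to 22.2 counts), which ends 8.08 kb short of the annotated end. TCONS_00201968 (7 exons) starts 112 bases upstream of the annotated start, and TCONS_00201966 and TCONS_00201967 (2 exons each) start 11043 bases downstream of it. TCONS_00201967 had 61.4, 96.2 and 13.9 counts in control, 196, 154 and 234 with palmitic acid, and 288, 121 and 218 with stearic acid. TCONS_00201968 had 78.8, 48.9 and 90.3 counts in control, 152, 144 and 92.5 with palmitic acid, and 74.5, 78.1 and 164 with stearic acid. TCONS_00201964 (3 exons, starting 13.1 kb downstream) had 7.44, 5.79 and 52.1 counts in control, 84.6, 67.3 and 158 with palmitic acid, and 67.4, 68.6 and 32.3 with stearic acid. In CPM, every palmitic acid library of TCONS_00201964 was above its controls, while 1 stearic acid library overlapped them. TCONS_00201966 had 41.3, 0 and 50.8 counts in control, 50.8, 19.5 and 0 with palmitic acid, and 39.6, 47.8 and 188 with stearic acid. In CPM its groups overlapped, though the highest palmitic acid library (18.934) barely exceeded the lowest stearic acid library (18.932). Its log2 difference between the acids was 2.26 (95% interval −0.75 to 5.27) and did not pass (edgeR adjusted p = 0.962). TCONS_00201965 (4 exons) was at 0 in 4 libraries and at 1.65 to 49.7 counts in the others.

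Isoforms starting 11043 to 13127 bases inside the annotated gene held 59.0% ± 6.63 of C130083M11Rik counts in control (54.0% to 66.5%). They held 69.5% ± 7.60 with palmitic acid (64.8% to 78.3%) and 76.3% ± 7.61 with stearic acid (71.2% to 85.0%). The stearic acid libraries did not overlap the controls and the palmitic acid libraries did. This grouping of starts was made after the values were seen and was not tested. TCONS_00201968, from the annotated start region, had a log2 change of 0.68 ± 0.29 (SE) with palmitic acid and 0.71 ± 0.29 with stearic acid, beside 1.15 ± 0.15 and 1.49 ± 0.15 for the whole locus. Neither change of this isoform passed (edgeR adjusted p = 0.423 and 0.291). Relative to its locus it changed by a log2 value of −0.34 and −0.55 (unadjusted p = 0.555 and 0.348 in edgeR's test of isoform use).

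**Figure D2:**
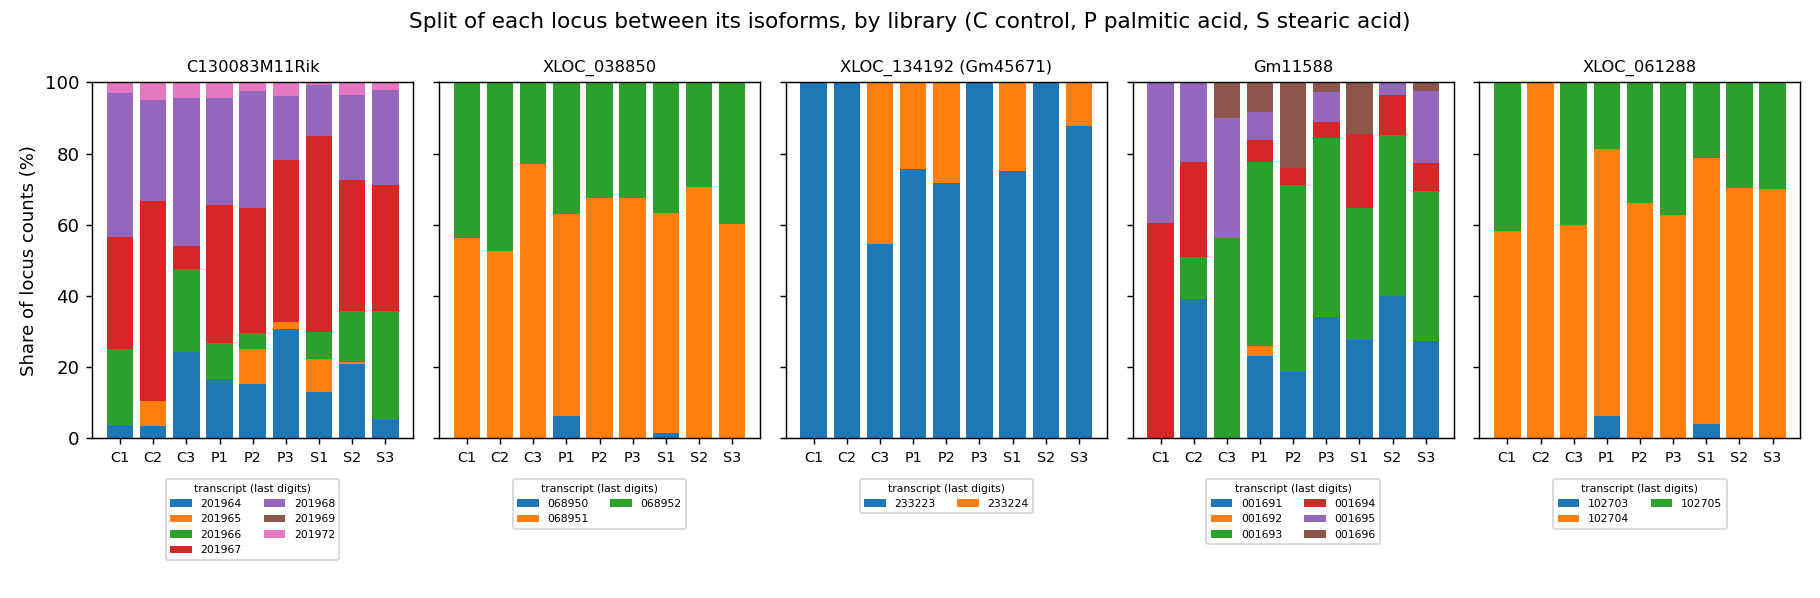
Share of each locus's counts (%, y axis) held by each of its isoforms (colours) in each library (x axis, C control, P palmitic acid, S stearic acid). The shares differ between control libraries at all 5 loci (TCONS_00068951 of XLOC_038850 holds 52.5% to 76.9% there).

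The division between isoforms was tested with edgeR over all 762 loci with at least 2 tested transcripts. It did not pass at any of the 5 loci. For palmitic acid against control the edgeR adjusted p was 0.830 for Gm11588 and 0.9998 for the other 4 loci. For stearic acid it was 0.946 for Gm11588 and 0.997 for the others, and for stearic against palmitic acid 0.9996 for all 5. Of all loci, 0.656%, 0.787% and 0.262% were called in these comparisons. The smallest unadjusted p among the 5 loci was 0.161, for Gm11588 with palmitic acid, and some control isoforms had few counts.

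The locus sums varied less between replicates than the isoforms did. The biological coefficient of variation (the fitted spread beyond counting error) of the sums was 0.139 for Gm11588, 0.132 for C130083M11Rik, 0.125 for XLOC_038850, 0.135 for XLOC_134192 and 0.186 for XLOC_061288, beside a median of 0.237 over all loci. Among tested isoforms it ran from 0.193 for the steadiest of XLOC_038850 to 1.95 for the least steady of C130083M11Rik, beside a median of 0.426 over all transcripts. Isoforms of loci chosen for their rise against control share that choice, so their calls against control are a description and nothing is read from them. As transcripts, 2 of the 17 tested were called with palmitic acid, where 0.294% of all 4426 transcripts were called higher and 0.407% in either direction. These were TCONS_00068951 and TCONS_00102704. With stearic acid these and TCONS_00233223 were called, 3 of 17, where 0.813% of all were called higher and 1.42% in either direction. All palmitic acid libraries lay above all controls for 10 of the 17 and all stearic acid libraries for 8, beside 11.6% and 11.8% of all transcripts. The count with palmitic acid was 0 without control replicate 1 or 3 or any palmitic acid replicate and 1 without control replicate 2, and with stearic acid it was 1 without control replicate 3 or stearic acid replicate 3. In stearic against palmitic acid 0 of 17 were called by edgeR or by DESeq2, and 0 had an unadjusted p under 0.05. All stearic acid libraries lay above all palmitic acid libraries for 1 of the 17, beside 5.22% of all transcripts. Beside 15589 lncRNA transcripts in all, the authors' deposited tables list 81 with palmitic acid (53 higher) and 189 with stearic acid (101 higher). In stearic against palmitic acid they list 17 (7 higher). Of the 21 transcripts they list 5 with palmitic acid, 5 with stearic acid and none in stearic against palmitic acid. All 5 in each are listed as higher and none belongs to Gm11588. In control, TCONS_00001691 of Gm11588 had 0, 16.0 and 0 counts and TCONS_00001693 had 0, 4.94 and 32.1. TCONS_00102705, which is listed with each acid, had 1.67, 0 and 4. Their biological coefficients of variation were 0.896, 0.646 and 0.393. Why no Gm11588 isoform is listed was not tested.

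**Figure D3:**
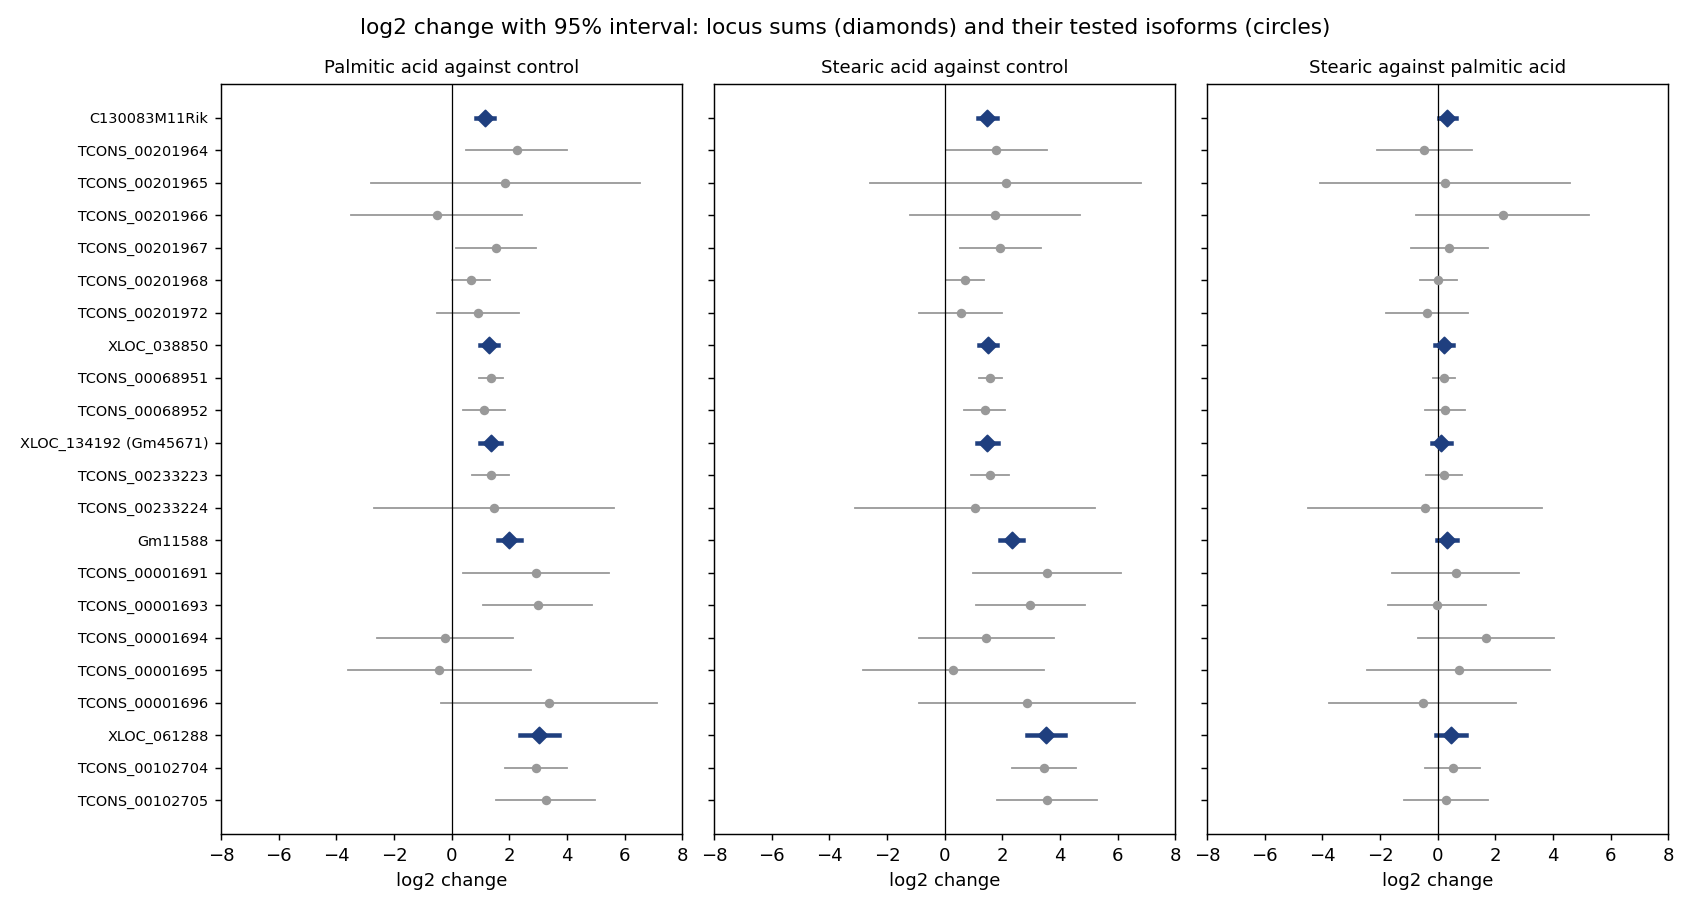
log2 change (x axis) with its 95% interval in each of the 3 comparisons, for the locus sums (blue diamonds) and their 17 tested isoforms (grey circles). The intervals of the sums are narrower than those of most isoforms, and in stearic against palmitic acid the sums lie between 0.14 and 0.47.

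Around the 5 loci, 36 other lncRNA loci of the table lie within 500 kb, and 8 of them had enough counts to test. Of these 8, 2 were called higher with each acid, none lower, and 6 did not pass. Over all loci tested, 3.69% were called higher with palmitic acid and 6.38% with stearic acid. The 2 were 9230114K14Rik, which overlaps the chosen C130083M11Rik on the opposite strand, and Pard3bos1. Pard3bos1 is a lncRNA in the region of the cell polarity gene Pard3b, 293 kb from Gm11588. Pard3bos1 stood at 11.6 ± 2.38 CPM in control, 27.1 ± 2.64 with palmitic acid and 31.7 ± 4.06 with stearic acid (n = 3), with edgeR adjusted p of 0.00493 and 0.000581 against control. Beside XLOC_038850, the locus XLOC_038851 (72.3 kb away) had 1, 4 and 2 counts in control, 16, 10 and 15 with palmitic acid, and 10, 1 and 5 with stearic acid, and did not pass (edgeR adjusted p = 0.102 and 0.396). XLOC_038854 (edgeR adjusted p = 0.681 and 0.975) and, beside C130083M11Rik, Gm3519 (edgeR adjusted p = 0.847 and 0.784) did not pass either. XLOC_061288 and XLOC_134192 had no testable neighbour.

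9230114K14Rik (XLOC_114524, chromosome 5, 52190672 to 52298316, plus strand) starts beside Dhx15 and runs across the whole of C130083M11Rik in the opposite direction. It had 185, 157 and 195 counts in control, 440.0, 358 and 359 with palmitic acid, and 384, 274 and 458 with stearic acid. Its level was 79.5 ± 8.88 CPM in control, 150.2 ± 12.5 with palmitic acid and 185 ± 3.15 with stearic acid (n = 3), 1.89-fold and 2.33-fold the control mean (edgeR adjusted p = 0.000232 and 3.98e-06). The ratio of C130083M11Rik to 9230114K14Rik counts was 1.08 ± 0.0282 in control, 1.27 ± 0.146 with palmitic acid and 1.30 ± 0.0879 with stearic acid (n = 3). No source used here gives the strand setting of the counting, and without it reads of RNAs that overlap on opposite strands cannot be told apart. The isoform of 9230114K14Rik with the most counts, TCONS_00195490, overlaps the C130083M11Rik locus by 2 bases and held 37.2% ± 7.19 of its counts in control, 54.5% ± 2.13 with palmitic acid and 49.6% ± 10.6 with stearic acid. Its counts were 68.0, 47.6 and 87.1 in control, 230, 202 and 197 with palmitic acid, and 226, 104 and 238 with stearic acid, so every acid library was above every control.

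**Figure D4:**
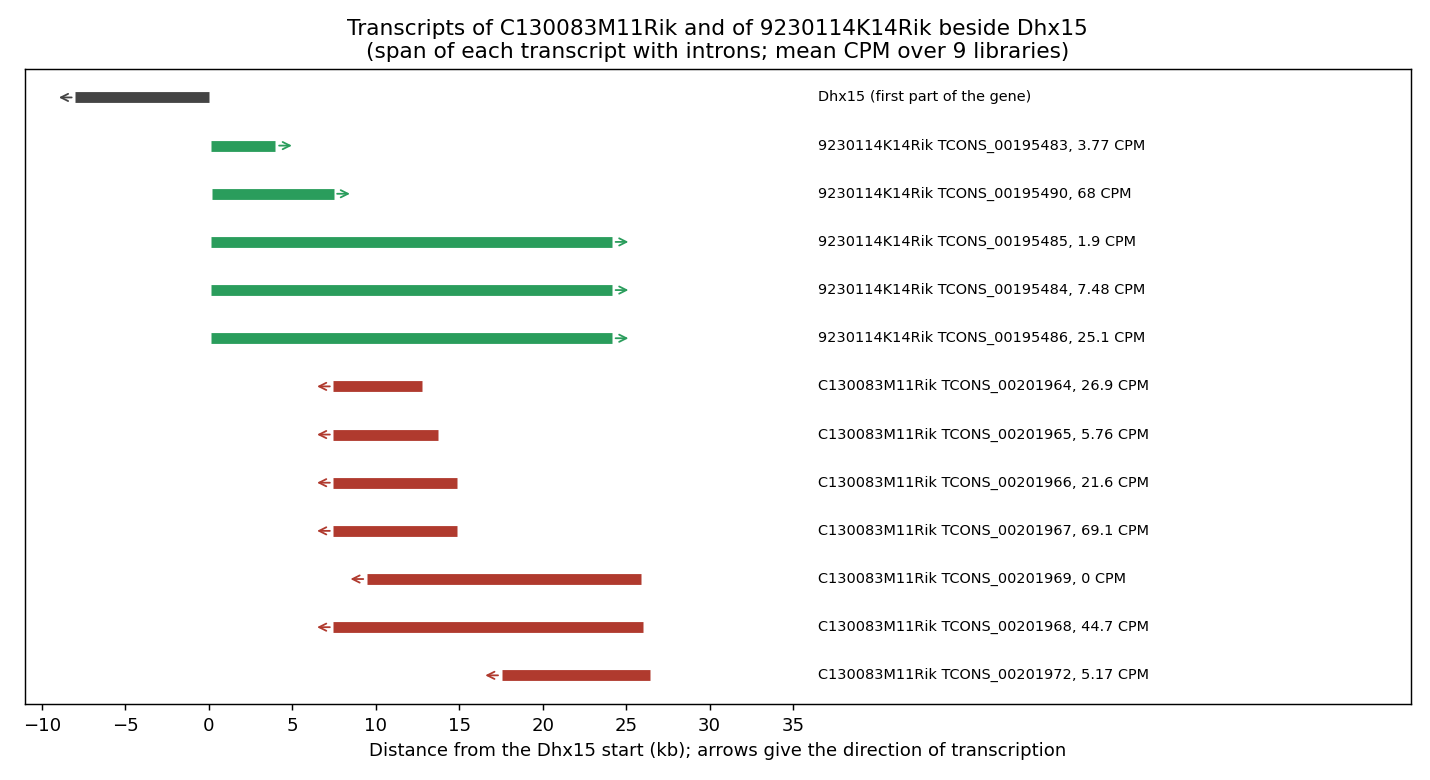
Span of the transcripts of C130083M11Rik (red) and of the 5 transcripts of 9230114K14Rik that end within 34 kb of the Dhx15 start (green), by distance from that start (kb), with arrows for the direction of transcription and the mean CPM over 9 libraries. TCONS_00195490 ends where most C130083M11Rik isoforms end, with an overlap of 2 bases, and the isoform with the annotated start and end (TCONS_00201969) is at 0.

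Because Dhx15 belongs to the DEAH-box and DEAD-box RNA helicases, lncRNA loci at other genes of this family were listed. Of 19 loci within 10 kb of a Dhx or Ddx gene, 9 were tested, with C130083M11Rik among them. With each acid 3 were called higher, 0 lower, and 6 did not pass, where 3.69% and 6.38% of all loci were called higher. The 3 were C130083M11Rik, 9230114K14Rik and XLOC_021670 near Dhx40, so both loci at Dhx15 account for 2 of them. C130083M11Rik was chosen for its rise, and without it 2 of 8 were called higher with each acid. XLOC_021670 stood at 135 ± 16.5 CPM in control, 304 ± 19.3 with palmitic acid and 557 ± 36.8 with stearic acid (n = 3), and it also passed in stearic against palmitic acid (log2 difference 0.87, edgeR adjusted p = 0.00394). The loci at Dhx16, Dhx30, Ddx1, Ddx21, Ddx55 and Ddx59 had log2 changes between −0.59 and 0.33. Without C130083M11Rik, the other 8 had a median log2 change of 0.15 with palmitic acid and 0.20 with stearic acid. With it the median was 0.18 and 0.23, and over all loci tested it was −0.02 and 0.01. The 8 still include 9230114K14Rik, which overlaps C130083M11Rik.

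XLOC_038850, XLOC_061288 and XLOC_134192 carry no gene name in the table and are among its 3415 unnamed intergenic loci without a known transcript. Of these, 1234 were tested. With palmitic acid 63 were called higher, 26 lower and 1145 not, and with stearic acid 87, 62 and 1085. These counts include XLOC_038850, XLOC_061288 and XLOC_134192, which were chosen for their rise. With them, the share called higher was 5.11% and 7.05%, beside 3.69% and 6.38% of all loci, and the median log2 change was 0.07 with each acid.

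The loci whose pattern over the 9 libraries was most like that of each of the 5 were found by the root mean square difference of log2(CPM + 1), each profile centred on its control mean. This measure uses the same libraries as the levels above and is a description. For C130083M11Rik the closest was Gm14264 on chromosome 2 (difference 0.12, at 36.4 ± 4.49, 88.8 ± 15.2 and 101 ± 11.3 CPM in control, palmitic and stearic acid), then Gm11685 (0.18) and XLOC_038850 (0.18). The same Gm14264 was closest to XLOC_038850 (0.18), followed by C130083M11Rik (0.18) and Pard3bos1 (0.20). For XLOC_134192 the closest were Gm5860 (0.17), 2810414N06Rik (0.20) and Pard3bos1 (0.20). For Gm11588 and XLOC_061288 the closest loci were further away. Those of Gm11588 were XLOC_047052 (0.37), XLOC_001120 (0.39) and XLOC_060268 (0.46), and those of XLOC_061288 were XLOC_003054 (0.38), Gm13807 (0.48) and XLOC_001441 (0.48). Mean control levels were 4.15 CPM for XLOC_047052, 1.39 for XLOC_001120 and 0 for XLOC_060268. They were 1.72 for XLOC_003054, 4.22 for Gm13807 and 0.162 for XLOC_001441. At such low levels the added 1 CPM weighs on the difference. The median difference to all tested loci was between 1.16 and 2.51. XLOC_001120 and XLOC_003054 overlap on chromosome 1 (119115801 to 119118654 and 119104711 to 119123658).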

How the data were processed

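RNA of 9 β-TC6 libraries was sequenced. Per the submitters' processing notes, bcl2fastq 2.17.1.14, Trimmomatic 0.30, HISAT2 2.0.1, HTSeq 0.6.1 and DESeq were used with mm10. The sources used here name neither the assembler nor the counter behind the expected counts and its strand setting. The authors deposited an expected count (estimated, 77.7% whole) and an FPKM per transcript and library. The authors also deposited tables of log2 fold changes with adjusted p-values for listed transcripts.

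Expected counts were summed per locus or kept per transcript, rounded, filtered with filterByExpr (minimum count 10) and scaled by TMM. They were tested with edgeR 4.0.16 (R 4.3.3, quasi-likelihood, all 9 libraries, 6 residual degrees of freedom, two-sided, with Benjamini-Hochberg adjustment over all features and a threshold of 0.05). This left 3039 loci and 4426 transcripts. Isoform use was tested with edgeR's diffSpliceDGE. Fits were tested on simulated data, where the isoform test called more unchanged loci than its threshold implies. Intervals are 95% confidence intervals. FPKM served for levels between loci. Positions come from GENCODE M21. Alternatives were DESeq2 size factors, DESeq2 1.42.0, library size alone, no filter, 2-group fits, a replicate block, each library left out, and no most abundant transcript. The loci and lists were chosen with earlier results of these data known. Isoforms that hold at least 10% of their locus in a group were to be described in full, and the other isoforms are given by their counts. Named neighbours are the nearest 2 tested within 500 kb, and 3 like loci are named per locus. A deposited table of calls and one of colour codes were not used. Tables used Python 3.11.15 and pandas 2.3.3, figures matplotlib 3.10.9.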

Additional observations from a re-analysis of the deposited data

How the results depend on the processing

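For the 5 loci, every alternative kept the direction of each log2 change and its side of the threshold in all 3 comparisons. Against control, the choice of the loci for their rise in these same libraries largely fixes this, so nothing is read from it. Some isoforms changed direction or call, and the cause was not tested where a value moved. Loci called with palmitic acid (169) numbered 104 to 115 with 1 library left out. With stearic acid (358) they numbered 236 to 332, and in stearic against palmitic acid (3) they numbered 0 to 4, with 13 without the low-count filter and 7 by DESeq2.

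Transcripts called with palmitic acid (18) numbered 48 without the filter, 7 in the fit of 2 groups, 130 by DESeq2 and 1 to 5 with 1 library left out. Those among the 21 (2) numbered 1 with DESeq2 size factors or library size alone, 4 without the filter, 0 in the fit of 2 groups, 5 by DESeq2 and 0 to 1 with 1 library left out. With stearic acid (63) transcripts called numbered 34 with library size alone, 115 without the filter, 28 in the fit of 2 groups, 230 by DESeq2 and 8 to 33 with 1 library left out. Those among the 21 (3) numbered 8 without the filter, 1 in the fit of 2 groups, 8 by DESeq2 and 1 to 3 with 1 library left out. In stearic against palmitic acid (0) they numbered 17 without the filter, 13 by DESeq2 and 0 to 2 with 1 library left out. Loci called for isoform use with palmitic acid (5) numbered 3 with DESeq2 size factors, 3 without the filter and 1 to 7 with 1 library left out. With stearic acid (6) they numbered 3 and 2 to 10 under the latter pair, and in stearic against palmitic acid (2) they numbered 1 and 0 to 1.

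No pairing of the libraries by replicate number was seen. Deviations of same-numbered libraries correlated at −0.04 to 0.08, beside −0.06 to 0.07 for libraries of other numbers. Of 9 libraries, 1 was closest to its own number in both other groups. Such weak correlations cannot show whether the cultures were paired. With the replicate block, loci called numbered 161, 361 and 3 in the 3 comparisons. Transcripts called numbered 1 with palmitic acid and 16 with stearic acid, and those among the 21 numbered 0 and 1. Under the block the log2 change of TCONS_00001694 with palmitic acid was 0.25, that of TCONS_00001695 with stearic acid −0.24 and that of TCONS_00201965 between the acids −0.049.

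Between the acids, TCONS_00001693 (−0.02) was at 0.00710 with DESeq2 size factors, 0.077 with library size alone and 0.00731 by DESeq2. With 1 library left out, signs also turned for other isoforms. With palmitic acid, TCONS_00001694 ranged from −0.85 to 0.63, TCONS_00001695 from −0.88 to 0.14 and TCONS_00201966 from −1.72 to 0.032. With stearic acid, TCONS_00001695 ranged from −1.87 to 0.88 and TCONS_00201965 from −1.60 to 7.28. Between the acids, TCONS_00001693 ranged from −0.053 to 0.057, TCONS_00001695 from −1.43 to 1.31, TCONS_00001696 from −2.91 to 0.41 and TCONS_00201964 from −0.89 to 0.076. TCONS_00201965 ranged from −3.46 to 1.96, TCONS_00201968 from −0.21 to 0.24, TCONS_00201972 from −0.79 to 0.034 and TCONS_00233224 from −1.16 to 0.14. Of the 21 isoforms, 13 had 0 counts in at least 1 library.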
